A study of Homo sapiens with 12 samples.

Results

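The 37 genes described here make up the antioxidant and detoxification programme of the transcription factor NRF2. They were chosen by name, with earlier results of these data known. Each was found through the symbol paired with its gene ID in HCC95 and the same ID in BICR31. They are 37 of the 57820 gene IDs listed for every library. NRF2, encoded by NFE2L2, is held back by KEAP1, an adaptor that passes it to a ubiquitin ligase and whose cysteines react with electrophiles. Once released, NRF2 pairs with a small MAF protein such as MAFG, binds antioxidant response elements, and raises genes for glutathione and thioredoxin chemistry, NADPH supply, removal of aldehydes and quinones, iron storage and export of conjugates. Mutations that free NRF2 from KEAP1 are frequent in lung squamous cell carcinoma and also occur in head and neck squamous cell carcinoma, where the programme protects cells against oxidants and drugs.

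Poly(A) RNA was sequenced in 5 groups of 2 human cancer cell lines. BICR31, a head and neck squamous cell carcinoma line, was given siRNA directed at KLF5 (siKLF5) or the control siNC, with 3 libraries each. HCC95, a lung squamous cell carcinoma line, overexpressed the E419Q form of KLF5, the wild-type form (WT) or an empty vector (2 libraries each). KLF5 is a zinc-finger transcription factor of epithelia, and E419Q exchanges a glutamate for a glutamine in its DNA-binding part. The comparisons ask which genes move when KLF5 is silenced, which move when either form is overexpressed, and where the 2 forms differ. The siRNA sequence, the vector, the time of harvest and whether the HCC95 cells were pools or clones are stated nowhere in the labels. Nothing in the labels ties the libraries of a group to separate cultures. The p-values therefore describe the spread among these libraries, and that spread may be technical. Each library is a bulk sample, in which fewer cells of a type and less RNA per cell cannot be told apart.

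BICR31 levels are in units of the deposited normalised signal, where 1 count was worth an estimated 7.87 to 9.12 units, and HCC95 levels are in CPM, counts scaled to the library's total. The worth of 1 count was inferred from the step that made 81.7% to 82.6% of values above 0 near-whole. The BICR31 libraries held an estimated 1922356 to 2296187 counts and the HCC95 libraries 3074139 to 4643792. KLF5 itself stood at 986, 1008 and 882 units with siKLF5, against 2682, 2289 and 2619.6 with siNC. In HCC95 it stood at 427 and 442 CPM with E419Q, 420.0 and 404 with WT and 149.9 and 136 with the empty vector, so KLF5 RNA in all was raised to a like level with both forms (E419Q over WT 1.04-fold, 95% interval 0.956 to 1.14). RNA of the cells' own KLF5 and of the introduced form was not told apart, and protein was not measured. All 8 squamous markers looked for (TP63, KRT5, KRT14, KRT6A, SOX2, DSG3, PKP1 and TRIM29) were detected in all 12 libraries, and the lymphocyte genes CD3E and MS4A1 were at 0 in all 12.

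The squamous markers moved too. They summed to 60146 to 61889 units with siKLF5, against 96067 to 98246 with siNC. Of the 8, 6 were called lower (TP63, KRT5, KRT14, KRT6A, PKP1 and TRIM29) and DSG3 was called higher. In HCC95 they summed to 13464 to 14236 CPM with E419Q, 19288 to 19945 with WT and 16456 to 16998 with the empty vector. The sum is carried by KRT5, at 10724 and 11308 CPM with E419Q, 16140.1 and 16736 with WT and 14491 and 14127 with the empty vector. Over the empty vector, 5 of the 8 were called higher with E419Q (TP63, KRT14, SOX2, PKP1 and TRIM29) and 3 lower (KRT5, KRT6A and DSG3). With WT 6 were called higher (TP63, KRT5, KRT14, DSG3, PKP1 and TRIM29) and 1 lower (KRT6A). Between the forms, SOX2 was called higher with E419Q than with WT, and TP63, KRT5, DSG3 and TRIM29 were called lower. Markers of other cell types were not silent in BICR31 and also moved with siKLF5. The 6 fibroblast markers summed to 2945 to 3333 units with siKLF5, against 1313 to 1445 with siNC, through COL1A1, COL1A2 and COL6A1, which rose. DCN and LUM were at 0 in all siKLF5 libraries and at no more than 9.09 units with siNC. PDGFRB was not called (0.518-fold, limma adjusted p = 0.512). The 3 endothelial markers summed to 268 to 427 units with siKLF5, against 164 to 246 with siNC, with VWF called higher. The 5 immune markers summed to 811 to 897 units with siKLF5, against 434 to 525 with siNC, mostly through CD68, which was called higher. CD14 read 263, 175 and 236 units with siKLF5, against 173, 182 and 90.3 with siNC. It was not called (1.56-fold, 95% interval 1.01 to 2.40, limma adjusted p = 0.125). PTPRC read 0 to 18.2 units. In HCC95 the fibroblast markers summed to 94.0 to 107 CPM with E419Q, 76.2 to 79.6 with WT and 51.3 to 57.3 with the empty vector, the endothelial ones to 26.3 to 28.5, 12.3 to 16.5 and 11.4 to 14.2 CPM in the same order, and the immune ones to 49.8 to 49.9, 47.5 to 48.3 and 64.8 CPM in each empty vector library. COL1A2, LUM and KDR were at 0 or 1 count in every HCC95 library, while COL6A1 rose with both forms, VWF rose with E419Q and CD68 fell with both forms. VWF was also higher with E419Q than with WT (1.91-fold, edgeR adjusted p = 0.000733). So was COL1A1 (1.98-fold, edgeR adjusted p = 0.0122), on 36 and 52 counts with E419Q and 23 and 28 with WT. The part of these markers in the results below was not tested.

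For the promoters, RefSeq windows of build GRCh38.p14, from 250 bases before to 50 bases after a gene's start, were found for 27 of the 37 genes, in 36 windows because some genes have several starts. The core of the antioxidant response element, spelled TGACNNNGC and searched on both strands, was in 11 of these 36 windows (30.6%), which belong to 10 genes, and in 13.3% of all 35116 windows. The 10 genes are CBR1, EPHX1, GCLM, GPX2, IDH1, KEAP1, ME1, PGD, PIR and TXNRD1. A box of the type read by KLF and SP factors, spelled GGGNGNGGC and also searched on both strands, was in 19 of the 36 windows (52.8%) and in 30.6% of all windows, and no match of the first motif overlapped one of the second. A match is a description of letters, and no binding was measured. The stretches below hold the element of 6 of the 10 genes, picked by their calls. EPHX1, KEAP1, PGD and PIR are not shown. Each stretch is read 5′ to 3′ along its own gene, with the element in capitals. GPX2, ME1, GCLM and TXNRD1 stood higher with E419Q than with WT in HCC95, CBR1 fell with siKLF5 and rose with both forms, and IDH1 rose in all 3 comparisons with a control. In ME1 and IDH1 the element reads in the gene's direction, and in the other 4 its reverse complement GCNNNGTCA does.
GPX2, chr14:64942839-64942887, minus strand: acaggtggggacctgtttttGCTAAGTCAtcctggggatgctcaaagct
ME1, chr6:83431160-83431208, minus strand: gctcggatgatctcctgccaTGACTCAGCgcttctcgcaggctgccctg
GCLM, chr1:93909436-93909484, minus strand: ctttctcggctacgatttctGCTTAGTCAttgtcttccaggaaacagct
TXNRD1, chr12:104286910-104286958, plus strand: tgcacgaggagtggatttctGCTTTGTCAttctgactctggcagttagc
CBR1, chr21:36069845-36069893, plus strand: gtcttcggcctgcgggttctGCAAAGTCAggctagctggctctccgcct
IDH1, chr2:208255186-208255234, minus strand: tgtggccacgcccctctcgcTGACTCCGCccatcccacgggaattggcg
ME1 and TXNRD1 hold further matches that are not shown. The element shown began 122 bases before the start of GPX2, 137 before that of ME1, 34 before that of GCLM, 102 before 1 of the starts of TXNRD1, 159 before that of CBR1 and 143 before that of IDH1.

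With siKLF5 in BICR31, genes of the programme changed in both directions among the 36 members that passed the filter on low values. MAFG, TXNRD1, IDH1, NQO1, FTL, ABCC1 and OSGIN1 rose, and PRDX1, ALDH3A1, CBR1 and ABCC3 fell. The rises were between 1.16-fold and 1.53-fold, and the deepest fall was that of the aldehyde dehydrogenase ALDH3A1, to 0.354-fold of siNC. The 7 members called higher stand beside 15.3% of all 15710 genes tested, and the 4 called lower beside 10.8%. In either direction 30.6% of the members were called, against 26.1% of all genes, a share so near the background that the count is no result about the set. The median log2 fold change was 0.04 over the members and 0.04 over all genes. The split depended on scaling: with quantile normalisation 5 members were called higher and 8 lower (2005 and 2129 of all genes), and with TMM scaling 6 and 6 (2102 and 2049 of all genes), where the signal as deposited gave 2404 and 1693 of all genes. Without each library in turn, 5 to 8 members were called higher and 4 or 5 lower.

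**Figure D1:**
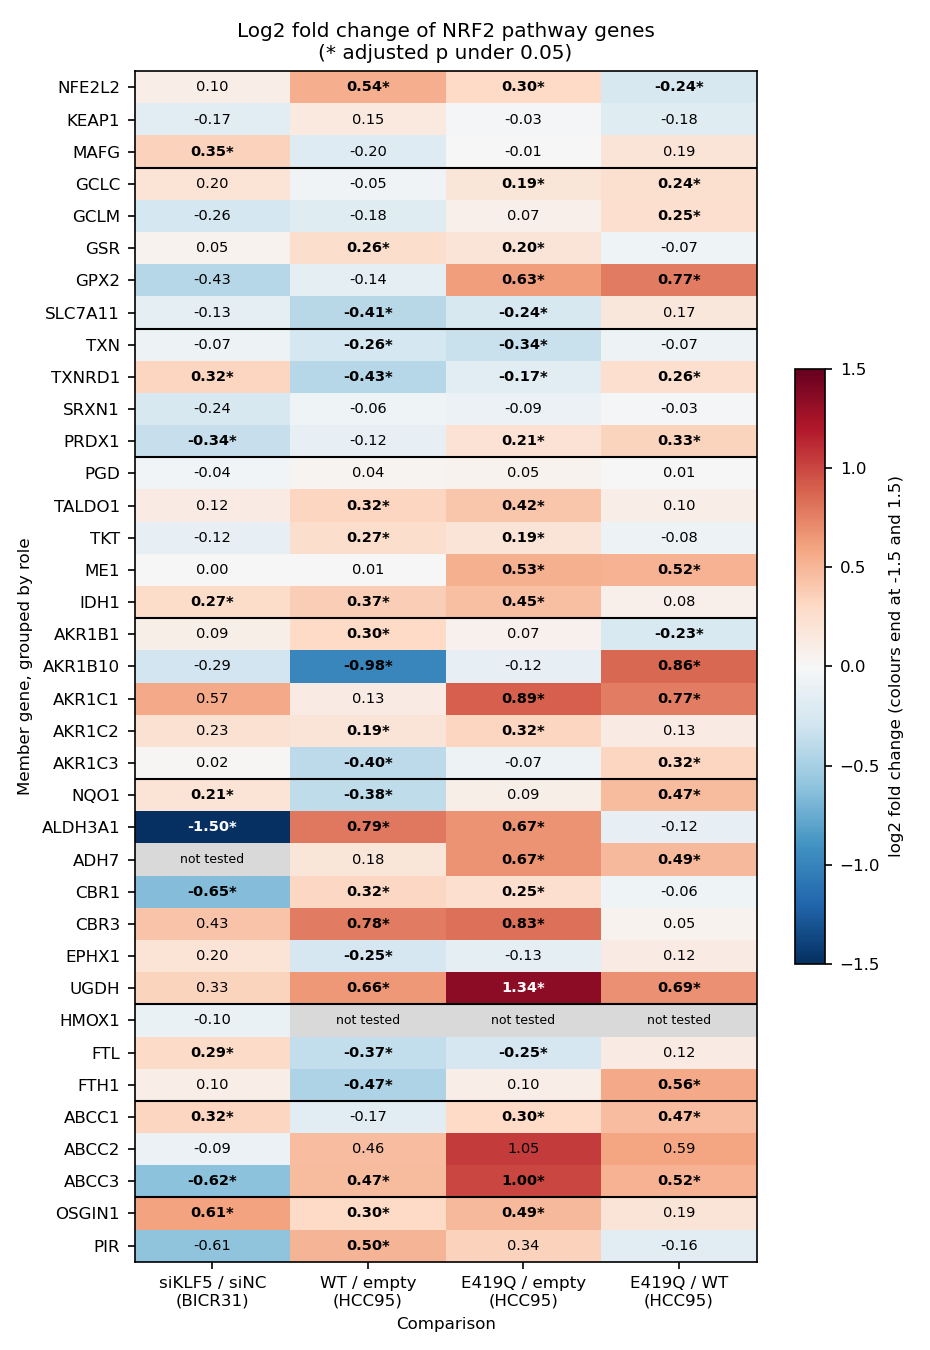
Log2 fold changes (colour and printed value) of the 37 members, grouped by role from top to bottom, in the 4 comparisons from left to right, with an asterisk on called values. ALDH3A1 had -1.5 with siKLF5 and 0.79 with WT, AKR1B10 had -0.98 with WT and 0.86 for E419Q against WT, and UGDH had 1.34 with E419Q.

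Among NRF2 and its partners, MAFG, the small MAF protein that binds DNA beside NRF2, rose with siKLF5. Its libraries read 994, 950.0 and 969 units with siKLF5, against 789, 739 and 759 with siNC, with no overlap (1.27-fold, 95% interval 1.09 to 1.49, limma adjusted p = 0.0206). This call was lost without siKLF5 A (adjusted p = 0.0679), without siKLF5 C (0.0563) and without siNC B (0.0583). NFE2L2 itself read 1882, 1600.0 and 1913 units with siKLF5, against 1727, 1750.0 and 1536 with siNC, overlapping groups with no call (1.07-fold, 95% interval 0.939 to 1.23, limma adjusted p = 0.454). KEAP1 read 1684, 1458 and 1480.3 units with siKLF5, against 1727, 1759.9 and 1707 with siNC, below siNC without overlap, and was not called (0.888-fold, 95% interval 0.784 to 1.01, limma adjusted p = 0.162). It passed the threshold, as lower, after quantile normalisation (adjusted p = 0.0499).

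In the glutathione branch no member was called with siKLF5. GCLC and GCLM, the catalytic and modifier subunits of the enzyme that starts glutathione synthesis, had fold changes of 1.15 (0.980 to 1.35) and 0.834 (0.647 to 1.07). GSR, which reduces oxidised glutathione, had 1.04 (0.889 to 1.21), the glutathione peroxidase GPX2 had 0.742 (0.511 to 1.08), and the cystine transporter subunit SLC7A11 had 0.914 (0.736 to 1.13). Their limma adjusted p-values were between 0.199 and 0.760.

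In the thioredoxin branch the reductase and the peroxiredoxin moved in opposite directions. TXNRD1, which recycles thioredoxin with NADPH, read 5382, 5292 and 5197 units with siKLF5, against 4236, 4213 and 4291 with siNC (1.25-fold, 95% interval 1.15 to 1.35, limma adjusted p = 0.000274). PRDX1, a peroxidase that thioredoxin regenerates, read 7921, 7583 and 7866 units with siKLF5, against 9664, 10003 and 9991 with siNC (0.788-fold, 95% interval 0.738 to 0.842, limma adjusted p = 2.17e-05). All 3 siKLF5 libraries lay above all siNC libraries for TXNRD1 and below them for PRDX1, and both calls held under every alternative run. Thioredoxin itself, TXN, had a fold change of 0.950 (0.852 to 1.06). SRXN1, which repairs overoxidised peroxiredoxins, read 1183, 1383 and 1378 units with siKLF5, against 1627, 1449.9 and 1563 with siNC, which missed the threshold (0.849-fold, 95% interval 0.739 to 0.975, limma adjusted p = 0.0772). It passed, as lower, after quantile normalisation (adjusted p = 0.0298) and after TMM scaling (0.0392).

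Of the genes that supply NADPH, only IDH1, the cytosolic isocitrate dehydrogenase, was called. It read 2917, 2967 and 2701 units with siKLF5, against 2445, 2407 and 2249 with siNC, without overlap (1.21-fold, 95% interval 1.09 to 1.34, limma adjusted p = 0.00858). The call was lost after quantile normalisation (adjusted p = 0.0530). PGD, TALDO1, TKT and ME1 had fold changes of 0.971, 1.09, 0.921 and 1.0, with no call. TKT passed the threshold, as lower, after quantile normalisation (adjusted p = 0.0196). The aldo-keto reductases were scarce in BICR31. AKR1B10 read 123, 75 and 110.2 units with siKLF5, against 209, 109 and 81.3 with siNC, and AKR1C1 read 130.0, 81.4 and 130.5 units with siKLF5, against 68.3, 76.4 and 79.9 with siNC. AKR1C2 read 81.6, 51.9 and 50.8 units with siKLF5, against 90.4, 33.0 and 44.1 with siNC and AKR1C3 read 76.0, 100 and 47.1 units with siKLF5, against 114, 45.6 and 65.8 with siNC. None of the 5 was called. The 95% intervals of the fold were wide, 0.474 to 1.42 for AKR1B10 and 0.885 to 2.49 for AKR1C1, and changes inside them were not detectable at this depth. AKR1B1, better covered at 2917, 2450.0 and 2913 units with siKLF5, against 2764, 2562 and 2448 with siNC, had a fold change of 1.06 (0.944 to 1.20).

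Among the other detoxification enzymes, ALDH3A1 showed the deepest fall of the set. This aldehyde dehydrogenase of barrier epithelia read 74.0, 75 and 126 units with siKLF5, against 282, 191 and 298 with siNC (0.354-fold, 95% interval 0.229 to 0.549, limma adjusted p = 0.00114), and its highest siKLF5 library lay below its lowest siNC library. CBR1, a carbonyl reductase, read 633, 717 and 614 units with siKLF5, against 927, 1158 and 994 with siNC (0.639-fold, 95% interval 0.536 to 0.763, limma adjusted p = 0.000670), again without overlap, and both calls held under every alternative. NQO1, the quinone reductase most used as a readout of NRF2, read 3977, 3400.0 and 3622 units with siKLF5, against 3109, 3154 and 3234 with siNC, without overlap but with a small difference (1.16-fold, 95% interval 1.05 to 1.28, limma adjusted p = 0.0316). The call of NQO1 held without siKLF5 B and was lost without siKLF5 A (adjusted p = 0.162), without siKLF5 C (0.0766), without siNC A (0.0854), without siNC B (0.0773), without siNC C (0.0582), with no filter on low values (0.0527), after quantile normalisation (0.123) and after TMM scaling (0.0815). CBR3, EPHX1 and UGDH, a carbonyl reductase, an epoxide hydrolase and the dehydrogenase that makes UDP-glucuronate, had fold changes of 1.34, 1.15 and 1.26 with no call. ADH7, an alcohol dehydrogenase that acts on retinol, was at 0 in all 6 BICR31 libraries, which allows up to 3 counts or an estimated 23.6 to 27.4 units per library.

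For iron, FTL, the light chain of the storage protein ferritin, read 8504, 8558 and 8968 units with siKLF5, against 7064, 7587 and 6729.8 with siNC (1.22-fold, 95% interval 1.13 to 1.32, limma adjusted p = 0.000582). Every siKLF5 library lay above every siNC library. FTH1, the heavy chain, read 25065, 23290.4 and 23865 units with siKLF5, against 22435, 21929 and 23115 with siNC and missed the threshold (1.07-fold, 95% interval 1.01 to 1.13, limma adjusted p = 0.0669). It passed, as higher, without siKLF5 B (adjusted p = 0.0345). Both ferritin genes have processed pseudogenes, between which counting can split reads. HMOX1, which degrades haem, read 57.5, 100 and 70.9 units with siKLF5, against 63.6, 109 and 72.3 with siNC, overlapping and at few counts.

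The export pumps split. ABCC1, which carries glutathione conjugates out of the cell, read 3237, 3067 and 3071 units with siKLF5, against 2609, 2489 and 2412 with siNC (1.25-fold, 95% interval 1.13 to 1.38, limma adjusted p = 0.00175). ABCC3, a pump of glucuronide conjugates, read 435, 358 and 354 units with siKLF5, against 491, 629 and 650.4 with siNC (0.651-fold, 95% interval 0.515 to 0.822, limma adjusted p = 0.00788). Neither gene's groups overlapped, with ABCC1 above and ABCC3 below siNC. ABCC2 read 131, 41.7 and 78.7 units with siKLF5, against 90.9, 91.2 and 63.2 with siNC, with overlap. OSGIN1, an oxidative stress-induced growth inhibitor, read 748, 700.0 and 787 units with siKLF5, against 418, 602 and 461 with siNC and rose (1.53-fold, 95% interval 1.23 to 1.89, limma adjusted p = 0.00506). PIR, an iron-binding nuclear protein, read 222, 208 and 181 units with siKLF5, against 391, 337 and 226 with siNC, with every siKLF5 library below every siNC library, at an adjusted p above the threshold (0.656-fold, 95% interval 0.469 to 0.917, limma adjusted p = 0.0608). PIR passed the threshold, as lower, without siNC C (adjusted p = 0.0143), with a mean of at least 100 units (0.0439), after quantile normalisation (0.0388), with the replicate letters as a block (0.0469) and after TMM scaling (0.0434).

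**Figure D2:**
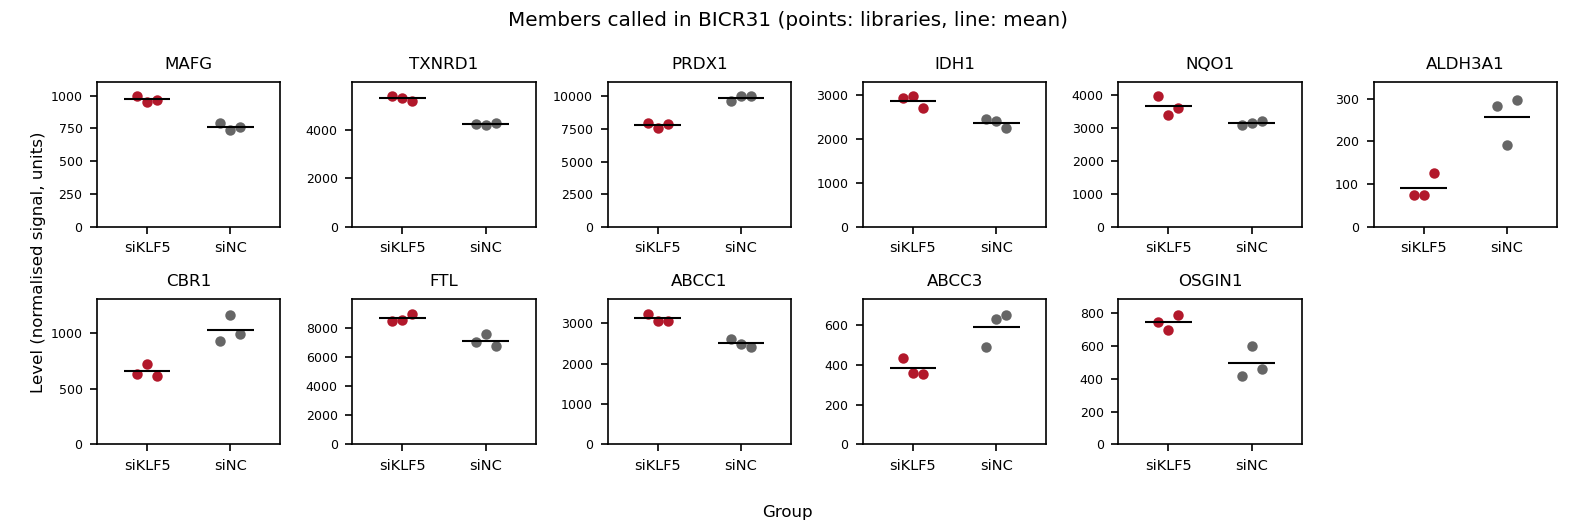
Level in units of the deposited normalised signal (y axis, from 0) of the 11 members called in BICR31, by group (x axis, siKLF5 left of siNC), with a point per library and a line at the mean of 3. The panels were chosen by the calls, so that the libraries of the 2 groups do not overlap in any of them adds nothing to the calls. ALDH3A1, with the deepest fall, lies at 74.0 to 126 units with siKLF5 and at 191 to 298 with siNC.

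In HCC95, 23 of the 36 members tested differed between wild-type KLF5 and the empty vector. WT raised 14 of them, against 11.2% of all 12933 genes tested, and lowered 9, against 12.5% (23.8% in either direction). The 14 were NFE2L2, GSR, TALDO1, TKT, IDH1, AKR1B1, AKR1C2, ALDH3A1, CBR1, CBR3, UGDH, ABCC3, OSGIN1 and PIR. The 9 were SLC7A11, TXN, TXNRD1, AKR1B10, AKR1C3, NQO1, EPHX1, FTL and FTH1. Many members are well covered in HCC95. NFE2L2, near the middle of the set by level, stood at percentile 93.6 of genes tested with the empty vector. Small changes are easier to call in such genes. The shares of all genes here and below were not matched for level, so an excess of calls need not be particular to the set. The median log2 fold change was 0.08 over the members and 0.00 over all genes. With DESeq2, 7 members were called higher and 8 lower, beside 499 and 604 of all genes, where the main test gave 1450 and 1623.

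E419Q raised 19 members over the empty vector, against 10.9% of all genes, and lowered 4, against 11.2% (22.1% in either direction). Of the 19, 12 were also called higher with WT, and 7 were not: GCLC, GPX2, PRDX1, ME1, AKR1C1, ADH7 and ABCC1. The 4 called lower, SLC7A11, TXN, TXNRD1 and FTL, were lower with WT too, and no member was called in opposite directions with the 2 forms. The median log2 fold change was 0.20 over the members and 0.00 over all genes. The count called lower was 2 without E419Q B and 1 without empty vector A. Both forms were set against the same 2 empty vector libraries, so these counts are not independent of each other.

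The direct comparison of the forms found 15 members higher with E419Q than with WT, against 4.59% of all genes, and 2 lower, NFE2L2 and AKR1B1, against 3.79% (8.38% in either direction). Of the 15, 9 had also risen over the empty vector with E419Q: the 7 named above, UGDH and ABCC3. For 4 others, AKR1B10, AKR1C3, NQO1 and FTH1, the difference came with a fall under WT and no call under E419Q. GCLM was called in neither comparison with the empty vector, and TXNRD1 was lower with both forms and more so with WT. The median log2 fold change was 0.18 over the members and -0.00 over all genes. Without each library in turn 11 to 13 members were called higher, and the count called lower was 0 without E419Q A, 1 without E419Q B, 0 without WT A and 1 without WT B. It was 0 with DESeq2 and 1 with limma-voom, beside 197 and 457 of all genes called lower, against 490 in the main test.

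**Figure D3:**
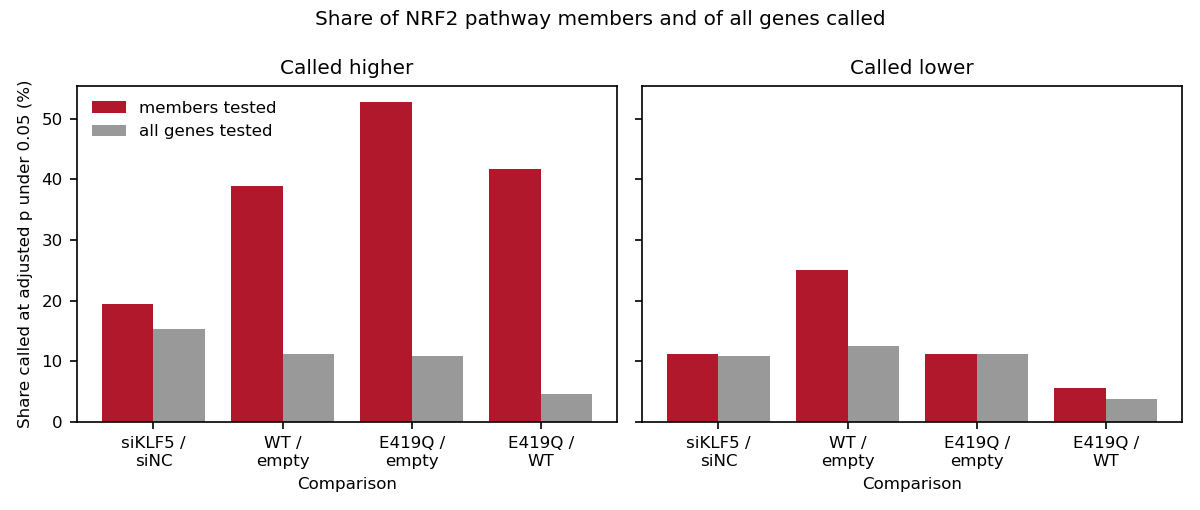
Share (%, y axis from 0) of the 36 members tested (red) and of all genes tested (grey) that were called at an adjusted p under 0.05, in the 4 comparisons (x axis), called higher in the left panel and lower in the right. Members and all genes lie close for siKLF5 (7 members, against 15.3% of all genes, higher), while 15 of 36 members, against 4.59% of all genes, were higher with E419Q than with WT. The shares of all genes are not matched to the members for level.

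NRF2 and KEAP1 are the switch of the programme. NFE2L2 stood at 374 and 393 CPM with E419Q, 449 and 446 with WT and 314 and 298 with the empty vector, so that both forms lay above the empty vector and WT above E419Q. It rose with WT (1.45-fold, 95% interval 1.33 to 1.58, edgeR adjusted p = 3.64e-08). NFE2L2 changed likewise with E419Q (1.23-fold, 95% interval 1.13 to 1.34, edgeR adjusted p = 0.000495) and was lower with E419Q than with WT (0.846-fold, 95% interval 0.777 to 0.921, edgeR adjusted p = 0.00721). The last call was lost without E419Q A (adjusted p = 0.128), without WT A (0.0605) and with DESeq2 (0.0760). KEAP1 stood at 119 and 117 CPM with E419Q, 134 and 131 with WT and 123 and 114 with the empty vector and was not called in any comparison. MAFG stood at 159 and 169.7 CPM with E419Q, 143 and 141 with WT and 158 and 165 with the empty vector, with no call, and the difference of WT from the empty vector lay just outside the threshold (0.872-fold, 95% interval 0.786 to 0.969, edgeR adjusted p = 0.0517). It passed with RLE size factors (adjusted p = 0.0490).

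In the glutathione branch, GPX2, a selenium-containing peroxidase of epithelia, had the largest difference. It stood at 248 and 229 CPM with E419Q, 139 and 136 with WT and 158 and 144 with the empty vector, with both E419Q libraries clear of the other 4. It was higher with E419Q than with WT (1.71-fold, 95% interval 1.54 to 1.90, edgeR adjusted p = 2.94e-09). GPX2 with E419Q was above the empty vector too (1.55-fold, 95% interval 1.40 to 1.72, edgeR adjusted p = 6.11e-08), while WT over the empty vector gave 0.907-fold, 0.814 to 1.01, adjusted p = 0.194. GCLC stood at 655 and 671 CPM with E419Q, 532 and 577 with WT and 593 and 550.0 with the empty vector and was higher with E419Q than with WT (1.18-fold, 95% interval 1.09 to 1.28, edgeR adjusted p = 0.00628). GCLC with E419Q was above the empty vector too (1.14-fold, 95% interval 1.05 to 1.24, edgeR adjusted p = 0.0196). Against WT this was lost without E419Q B (adjusted p = 0.0926) and without WT A (0.162), and against the empty vector without E419Q A (adjusted p = 0.0666), without E419Q B (0.148), without empty vector B (0.208) and with DESeq2 (0.113). GCLM stood at 229.7 and 229 CPM with E419Q, 179 and 200.4 with WT and 217 and 210.0 with the empty vector, above WT with E419Q (1.19-fold, 95% interval 1.08 to 1.32, edgeR adjusted p = 0.0206), a call lost without E419Q A (adjusted p = 0.135), without E419Q B (0.119), without WT A (0.310) and with DESeq2 (0.247). WT over the empty vector gave 0.885-fold, 0.801 to 0.977, adjusted p = 0.0640 for GCLM. That difference passed, as lower, without WT B (adjusted p = 0.0363).

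GSR, the glutathione reductase, stood at 262 and 266 CPM with E419Q, 271 and 275 with WT and 215 and 236 with the empty vector and rose with WT (1.20-fold, 95% interval 1.09 to 1.31, edgeR adjusted p = 0.00360). GSR changed likewise with E419Q (1.14-fold, 95% interval 1.04 to 1.26, edgeR adjusted p = 0.0336). The WT call was lost without empty vector A (adjusted p = 0.0551) and with DESeq2 (0.0638), and the E419Q call without E419Q A (adjusted p = 0.111), without E419Q B (0.173), without empty vector A (0.258), with no filter on low counts (0.0724) and with DESeq2 (0.244). SLC7A11, which imports the cystine that glutathione synthesis uses, went the other way. It stood at 432 and 458 CPM with E419Q, 386 and 397 with WT and 555 and 481 with the empty vector, with both forms below the empty vector, and fell with WT (0.752-fold, 95% interval 0.687 to 0.824, edgeR adjusted p = 1.5e-05). SLC7A11 changed likewise with E419Q (0.844-fold, 95% interval 0.770 to 0.924, edgeR adjusted p = 0.00554). The E419Q call was lost without E419Q A (adjusted p = 0.0909) and without empty vector A (0.145). The log2 fold change was -0.14 without empty vector A, against -0.24 with all libraries.

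In the thioredoxin branch 3 genes followed 3 patterns. TXN, the small redox carrier, stood at 449 and 438 CPM with E419Q, 464 and 457 with WT and 548 and 547 with the empty vector, and fell with WT (0.834-fold, 95% interval 0.770 to 0.903, edgeR adjusted p = 0.000770). TXN changed likewise with E419Q (0.793-fold, 95% interval 0.731 to 0.859, edgeR adjusted p = 4.11e-05). Its reductase TXNRD1 stood at 933 and 819 CPM with E419Q, 745 and 703 with WT and 994 and 937 with the empty vector, lowest with WT. It fell with WT (0.744-fold, 95% interval 0.684 to 0.810, edgeR adjusted p = 3.47e-06), less so with E419Q (0.889-fold, 95% interval 0.816 to 0.967, edgeR adjusted p = 0.0391), and was higher with E419Q than with WT (1.19-fold, 95% interval 1.096 to 1.30, edgeR adjusted p = 0.00498). The E419Q call against the empty vector was lost without E419Q B (adjusted p = 0.523), without empty vector A (0.183), with upper-quartile scaling (0.0666), with DESeq2 (0.165) and with only the 2 groups compared in the fit (0.0531), and that against WT without E419Q A (adjusted p = 0.269) and without WT B (0.120). The log2 fold change against the empty vector was -0.27 without E419Q A and -0.08 without E419Q B, against -0.17 with all libraries. Between the forms it was 0.16 without E419Q A, against 0.26.

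PRDX1 stood at 977 and 996 CPM with E419Q, 763 and 782 with WT and 824 and 842 with the empty vector, with both E419Q libraries above the other 4. It was higher with E419Q than with WT (1.26-fold, 95% interval 1.17 to 1.36, edgeR adjusted p = 2.81e-05). PRDX1 with E419Q was above the empty vector too (1.16-fold, 95% interval 1.08 to 1.25, edgeR adjusted p = 0.00284), and no difference was called between WT and the empty vector (0.920-fold, 95% interval 0.854 to 0.991, edgeR adjusted p = 0.0970). Both differences called for PRDX1 held under every alternative. SRXN1 stood at 377 and 337 CPM with E419Q, 354 and 364 with WT and 377 and 366 with the empty vector and was called in no comparison.

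The NADPH-supplying enzymes had no member called lower. TALDO1, the transaldolase of the pentose phosphate pathway, stood at 369 and 417 CPM with E419Q, 363 and 362 with WT and 279.6 and 294 with the empty vector and rose with WT (1.25-fold, 95% interval 1.14 to 1.37, edgeR adjusted p = 0.000346). TALDO1 changed likewise with E419Q (1.34-fold, 95% interval 1.22 to 1.47, edgeR adjusted p = 9.83e-06). Its partner transketolase, TKT, stood at 1076 and 1071 CPM with E419Q, 1168 and 1073 with WT and 937 and 909.6 with the empty vector and rose with WT (1.20-fold, 95% interval 1.12 to 1.30, edgeR adjusted p = 0.000338). TKT changed likewise with E419Q (1.14-fold, 95% interval 1.06 to 1.23, edgeR adjusted p = 0.0106). E419Q lay above WT in TALDO1 and overlapped it in TKT. Neither difference between the forms was called, with 95% intervals of 0.977 to 1.17-fold for TALDO1 and 0.877 to 1.02-fold for TKT. The E419Q call of TKT was lost without E419Q A (adjusted p = 0.0735), without E419Q B (0.0637) and without empty vector B (0.0692). IDH1 stood at 150 and 128 CPM with E419Q, 139 and 121 with WT and 105 and 94.1 with the empty vector and rose with WT (1.30-fold, 95% interval 1.14 to 1.48, edgeR adjusted p = 0.00353). IDH1 changed likewise with E419Q (1.37-fold, 95% interval 1.20 to 1.56, edgeR adjusted p = 0.000604), the WT call being lost without empty vector B (adjusted p = 0.0593), without WT A (0.105) and with DESeq2 (0.0762).

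ME1, the malic enzyme, was the member of this branch with a called difference between the forms. It stood at 225 and 216 CPM with E419Q, 141 and 163 with WT and 152 and 148 with the empty vector, where WT and the empty vector overlap and E419Q lies above both. It was higher with E419Q than with WT (1.43-fold, 95% interval 1.29 to 1.59, edgeR adjusted p = 8.71e-06). ME1 with E419Q was above the empty vector too (1.44-fold, 95% interval 1.30 to 1.60, edgeR adjusted p = 2.49e-06), and WT over the empty vector gave 1.01-fold, 0.903 to 1.12, adjusted p = 0.941. PGD stood at 784 and 810.5 CPM with E419Q, 787 and 780.0 with WT and 767 and 744 with the empty vector and was not called. It lay within 0.959 to 1.12-fold of the empty vector with E419Q and 0.955 to 1.11-fold with WT as 95% intervals.

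**Figure D4:**
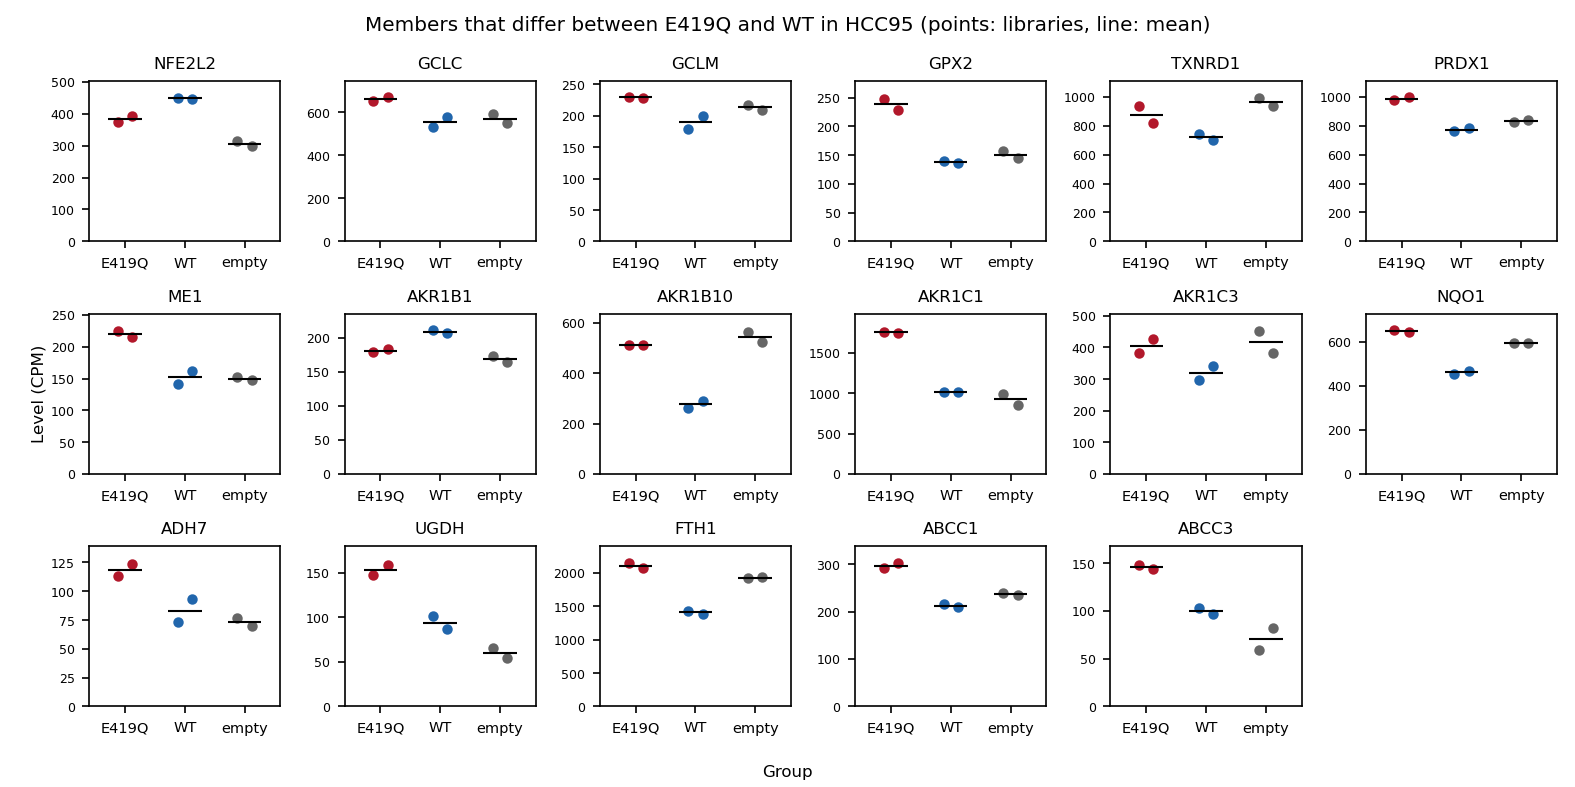
Level in CPM (y axes, from 0) of the 17 members called different between E419Q and WT in HCC95, by group (x axis, E419Q, WT, empty vector from left to right), with a point per library and a line at the mean of 2. AKR1B10 lies at 264 and 292 CPM with WT, below all other libraries, and AKR1C1 lies at 1759.5 and 1746 CPM with E419Q, above all others.

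The aldo-keto reductases, which reduce carbonyls and steroids with NADPH, held the widest separation of the forms. AKR1B10 stood at 511 and 511 CPM with E419Q, 264 and 292 with WT and 565 and 525 with the empty vector, with WT alone low. It fell with WT (0.507-fold, 95% interval 0.464 to 0.554, edgeR adjusted p = 1.69e-13), was not called with E419Q (0.919-fold, 95% interval 0.844 to 1.001, edgeR adjusted p = 0.155), and was higher with E419Q than with WT (1.81-fold, 95% interval 1.66 to 1.99, edgeR adjusted p = 9.26e-12). AKR1C1 stood at 1759.5 and 1746 CPM with E419Q, 1017 and 1017 with WT and 994 and 857 with the empty vector, with E419Q alone high. It was higher with E419Q than with WT (1.70-fold, 95% interval 1.57 to 1.84, edgeR adjusted p = 3.43e-11). AKR1C1 with E419Q was above the empty vector too (1.86-fold, 95% interval 1.71 to 2.02, edgeR adjusted p = 5.9e-13), and the difference of WT from the empty vector (1.09-fold, 95% interval 1.01 to 1.19, edgeR adjusted p = 0.112) was not called. It passed without empty vector A (adjusted p = 0.00318) and with upper-quartile scaling (0.0399).

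AKR1C2, whose transcript is near-identical to that of AKR1C1, stood at 2164 and 2137 CPM with E419Q, 1954 and 1933 with WT and 1743 and 1632 with the empty vector and rose with WT (1.14-fold, 95% interval 1.06 to 1.23, edgeR adjusted p = 0.00457). AKR1C2 changed likewise with E419Q (1.25-fold, 95% interval 1.16 to 1.34, edgeR adjusted p = 1.11e-05). The WT call was lost without empty vector B (adjusted p = 0.0784) and without WT A (0.0512). Reads can be split between the pair by the counting, so their single values are uncertain, and their summed level was taken as well. It came to 3923 and 3883 CPM with E419Q, 2971 and 2950.0 with WT, and 2737 and 2489 with the empty vector, 1.32 times WT and 1.49 times the empty vector in E419Q. This sum does not depend on how reads were split within the pair, and E419Q did not overlap the other groups in it. Both genes rank the groups in the same order in every library, so the sum had to keep that order and is no check on it.

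AKR1C3, a hydroxysteroid dehydrogenase of the same cluster, stood at 382 and 426 CPM with E419Q, 297 and 341 with WT and 453 and 383 with the empty vector, lowest with WT. It fell with WT (0.759-fold, 95% interval 0.669 to 0.862, edgeR adjusted p = 0.00328) and was higher with E419Q than with WT (1.25-fold, 95% interval 1.1 to 1.42, edgeR adjusted p = 0.0313), the last call being lost without E419Q B (adjusted p = 0.247), without WT A (0.228) and with the replicate letters as a block (0.0807). AKR1B1, aldose reductase, differed between the forms in the other direction. It stood at 179 and 183 CPM with E419Q, 212 and 207 with WT and 174 and 165 with the empty vector, rose with WT (1.23-fold, 95% interval 1.11 to 1.35, edgeR adjusted p = 0.00184) and was lower with E419Q than with WT (0.855-fold, 95% interval 0.774 to 0.944, edgeR adjusted p = 0.0399). The WT call was lost with DESeq2 (adjusted p = 0.0561), and the call against WT was lost without E419Q A (adjusted p = 0.228), without E419Q B (0.151), without WT A (0.218), without WT B (0.110), with DESeq2 (0.440) and with limma-voom (0.0511).

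Among the other detoxification enzymes, ALDH3A1 rose most with WT. It stood at 1939 and 2075 CPM with E419Q, 2171 and 2137 with WT and 1248 and 1219 with the empty vector, a rise with WT (1.73-fold, 95% interval 1.61 to 1.86, edgeR adjusted p = 1.69e-13). ALDH3A1 rose with E419Q as well (1.59-fold, 95% interval 1.48 to 1.71, edgeR adjusted p = 5.91e-12), and no difference between the forms was called (0.920-fold, 95% interval 0.857 to 0.987, edgeR adjusted p = 0.160). UGDH, whose product feeds glucuronidation, stood at 148 and 158 CPM with E419Q, 101 and 87.2 with WT and 65.4 and 53.8 with the empty vector, in 3 separate steps. It rose with E419Q (2.54-fold, 95% interval 2.21 to 2.92, edgeR adjusted p = 6.95e-12) and with WT (1.58-fold, 95% interval 1.36 to 1.83, edgeR adjusted p = 1.94e-05) and was higher with E419Q than with WT (1.61-fold, 95% interval 1.41 to 1.84, edgeR adjusted p = 3.02e-06). All of the UGDH calls held under every alternative, as did the ALDH3A1 calls against the empty vector.

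NQO1 stood at 651 and 643 CPM with E419Q, 455 and 466 with WT and 596 and 595 with the empty vector, lowest with WT. It fell with WT (0.767-fold, 95% interval 0.709 to 0.830, edgeR adjusted p = 3.84e-06), gave no call with E419Q (1.06-fold, 95% interval 0.985 to 1.15, edgeR adjusted p = 0.265) and was higher with E419Q than with WT (1.39-fold, 95% interval 1.28 to 1.502, edgeR adjusted p = 1.93e-07), and both calls held under every alternative. ADH7 stood at 113 and 124 CPM with E419Q, 73.1 and 93.4 with WT and 77.0 and 69.8 with the empty vector, with WT and the empty vector overlapping. WT over the empty vector was not called (1.14-fold, 95% interval 0.977 to 1.32, edgeR adjusted p = 0.224). It passed, as higher, without WT A (adjusted p = 0.0465), where the log2 fold change was 0.34, against 0.18 with all libraries. ADH7 was higher with E419Q than with the empty vector (1.59-fold, 95% interval 1.37 to 1.84, edgeR adjusted p = 1.3e-05) and than with WT (1.40-fold, 95% interval 1.21 to 1.62, edgeR adjusted p = 0.00145), the last lost without E419Q B (adjusted p = 0.0615) and without WT A (0.0955). EPHX1 stood at 184 and 200.3 CPM with E419Q, 167 and 182 with WT and 204 and 208 with the empty vector and fell with WT (0.838-fold, 95% interval 0.758 to 0.927, edgeR adjusted p = 0.00836), a call lost without WT A (adjusted p = 0.131) and with DESeq2 (0.126).

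The carbonyl reductases rose with both forms. CBR1 stood at 166 and 185 CPM with E419Q, 182 and 180.3 with WT and 149 and 140.2 with the empty vector and rose with WT (1.25-fold, 95% interval 1.12 to 1.38, edgeR adjusted p = 0.00197). CBR1 changed likewise with E419Q (1.19-fold, 95% interval 1.07 to 1.33, edgeR adjusted p = 0.0150). CBR3 stood at 16.6 and 16.9 CPM with E419Q, 17.3 and 14.8 with WT and 8.68 and 9.69 with the empty vector, on 30 to 61 counts per library, and rose with WT (1.71-fold, 95% interval 1.26 to 2.32, edgeR adjusted p = 0.00772). CBR3 changed likewise with E419Q (1.77-fold, 95% interval 1.30 to 2.42, edgeR adjusted p = 0.00571). E419Q over WT gave 95% intervals of 0.861 to 1.06-fold for CBR1 and 0.780 to 1.37-fold for CBR3. The WT calls were lost, for CBR1, with DESeq2 (adjusted p = 0.0599), and for CBR3 without WT A (adjusted p = 0.0973) and with DESeq2 (0.188). The E419Q calls were lost, for CBR1, without E419Q B (adjusted p = 0.267), without empty vector B (0.128) and with DESeq2 (0.191), and for CBR3 without E419Q B (adjusted p = 0.0525) and with DESeq2 (0.155).

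Both ferritin chains were lower with WT, and the heavy chain separated the forms. FTH1, the ferroxidase chain, stood at 2147 and 2070.0 CPM with E419Q, 1427 and 1388 with WT and 1917 and 1939 with the empty vector, where E419Q lies above the empty vector and WT below. It fell with WT (0.724-fold, 95% interval 0.675 to 0.776, edgeR adjusted p = 1.38e-08), was not called with E419Q (1.07-fold, 95% interval 0.999 to 1.15, edgeR adjusted p = 0.157) and was higher with E419Q than with WT (1.48-fold, 95% interval 1.38 to 1.59, edgeR adjusted p = 3.47e-10), and its calls held under every alternative. FTL stood at 873 and 799 CPM with E419Q, 749.5 and 769 with WT and 1048 and 907 with the empty vector and fell with WT (0.772-fold, 95% interval 0.707 to 0.843, edgeR adjusted p = 5.19e-05). FTL changed likewise with E419Q (0.838-fold, 95% interval 0.767 to 0.916, edgeR adjusted p = 0.00338). The E419Q call was lost without E419Q B (adjusted p = 0.102) and without empty vector A (0.0885). The log2 fold change of FTL was -0.15 without empty vector A, against -0.25 with all libraries. HMOX1 had 4 and 2 counts with E419Q, 8 and 6 with WT and 6 and 8 with the empty vector, too few to enter the test.

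Of the export pumps, ABCC1 and ABCC3 were higher with E419Q. ABCC3 stood at 148 and 144 CPM with E419Q, 103 and 96.9 with WT and 58.7 and 82.0 with the empty vector, in 3 separate steps. It rose with E419Q (1.997-fold, 95% interval 1.71 to 2.33, edgeR adjusted p = 3.08e-07) and WT (1.39-fold, 95% interval 1.18 to 1.63, edgeR adjusted p = 0.00332) and was higher with E419Q than with WT (1.44-fold, 95% interval 1.24 to 1.67, edgeR adjusted p = 0.00142). The WT call was lost without empty vector A (adjusted p = 0.0506) and without WT A (0.0566). The log2 fold change with WT was 0.27 without empty vector A and 0.75 without empty vector B, against 0.47 with all libraries. The call between the forms was lost without WT B (adjusted p = 0.0531). ABCC1 stood at 291 and 303 CPM with E419Q, 215 and 209 with WT and 239 and 236 with the empty vector, higher with E419Q than with WT (1.38-fold, 95% interval 1.26 to 1.52, edgeR adjusted p = 3.91e-06) and than with the empty vector (1.23-fold, 95% interval 1.12 to 1.34, edgeR adjusted p = 0.000865). WT over the empty vector gave 0.887-fold, 0.808 to 0.973, adjusted p = 0.0530 for ABCC1. That difference passed, as lower, with RLE size factors (adjusted p = 0.0497).

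ABCC2, the canalicular pump of conjugates, had 21 and 21 counts with E419Q, 13 and 19 with WT and 7 and 18 with the empty vector. Its change with E419Q lay just outside the threshold (2.07-fold, 95% interval 1.20 to 3.60, edgeR adjusted p = 0.0503). It passed without empty vector B (adjusted p = 0.0302) and with upper-quartile scaling (0.0482). The log2 fold change was 1.64 without empty vector B, against 1.05 with all libraries. OSGIN1 stood at 85.9 and 75.5 CPM with E419Q, 67.1 and 71.6 with WT and 59.9 and 53.0 with the empty vector and rose with E419Q (1.41-fold, 95% interval 1.21 to 1.63, edgeR adjusted p = 0.000821) and WT (1.23-fold, 95% interval 1.06 to 1.43, edgeR adjusted p = 0.0406), the WT call being lost without empty vector B (adjusted p = 0.319), without WT A (0.0855), without WT B (0.237), with no filter on low counts (0.0529) and with DESeq2 (0.376). PIR stood at 17.9 and 21.1 CPM with E419Q, 20.5 and 22.5 with WT and 15.3 and 14.9 with the empty vector and rose with WT (1.42-fold, 95% interval 1.103 to 1.82, edgeR adjusted p = 0.0374). That call was lost without empty vector A (adjusted p = 0.0746), without empty vector B (0.148), without WT A (0.0830), without WT B (0.221), with no filter on low counts (0.0602) and with DESeq2 (0.409). Both genes gave no call between the forms.

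The call between the forms can be laid beside the promoter letters shown above as a description. Of the 10 genes with the element in a window, 4 were higher with E419Q than with WT (GCLM, GPX2, ME1 and TXNRD1) and 0 lower, beside 15 of the 36 members tested (41.7%) and 4.59% of all genes. The 36 include these 10, and an element outside the windows would be missed, so the part of the element was not tested. Of the 17 genes with a window and no match, 6 were higher and 2 lower, and of the 10 genes without a window, of which 9 were tested, 5 were higher and 0 lower. With siKLF5, 2 of the 10 genes with the element rose (IDH1 and TXNRD1) and 1 fell (CBR1), beside 15.3% and 10.8% of all genes.

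Added up, the 37 genes made 2.20% and 2.16% of all TPM (transcript abundance scaled for length and library) with E419Q, 1.79% and 1.79% with WT, and 1.91% and 1.85% with the empty vector. By this measure E419Q lay above, and WT below, both empty vector libraries. The sum is weighted toward abundant members. The aldo-keto reductases made 5895 and 5767 TPM with E419Q, 4236 and 4375 with WT and 4517 and 4163 with the empty vector. FTH1 stood at 2115 and 2071 TPM with WT, against 2899 and 3149 with the empty vector. By log2 fold change, 26 members were positive and 10 negative with E419Q, and 20 and 16 with WT. As a share of counts the 37 genes made 1.96% and 1.96% with E419Q, 1.67% and 1.66% with WT, and 1.69% and 1.62% with the empty vector, so that E419Q again lay above the rest while WT lay between the empty vector libraries. In BICR31 the members took 0.477% to 0.502% of the summed signal with siKLF5 and 0.483% to 0.489% with siNC, which overlap.

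By TPM, the levels of different genes can be set side by side. FTH1 was the most abundant member in the E419Q libraries, at 3289 and 3203 TPM, followed by AKR1C2 at 2477 and 2283 and AKR1C1 at 2206 and 2225. With WT, FTH1 at 2115 and 2071, ALDH3A1 at 2137 and 2109 and AKR1C2 at 2083 and 2119 TPM overlapped at the top. With the empty vector FTH1 led at 2899 and 3149 TPM, FTL followed at 2176 and 1903 and AKR1C2 at 1872 and 1798, each pair clear of the next. PRDX1, ALDH3A1, AKR1C1 and TXN came next with the empty vector, at 1459.5 and 1505, 1268 and 1235, 1289.6 and 1143 and 1153 and 1166 TPM. AKR1C1 overlapped ALDH3A1 and TXN. NFE2L2 stood in the middle of the set at 191 and 170.4 TPM, and HMOX1 and ABCC2 lay at the bottom at 2.15 and 1.53 and 0.570 and 1.64 TPM.

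Among genes tested in each line, ranked by length-scaled level in the controls, AKR1C1 stood at percentile 99.0 in HCC95 with the empty vector and at percentile 30.8 in BICR31 with siNC. AKR1B10 stood at 98.3 and 37.3 and ALDH3A1 at 99.0 and 50.2 in the same order. FTH1, at 99.6 and 99.7, and PRDX1, at 99.2 and 99.1, stood near the top in both lines. The lines were normalised separately, so these ranks describe each line and were not tested.

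**Figure D5:**
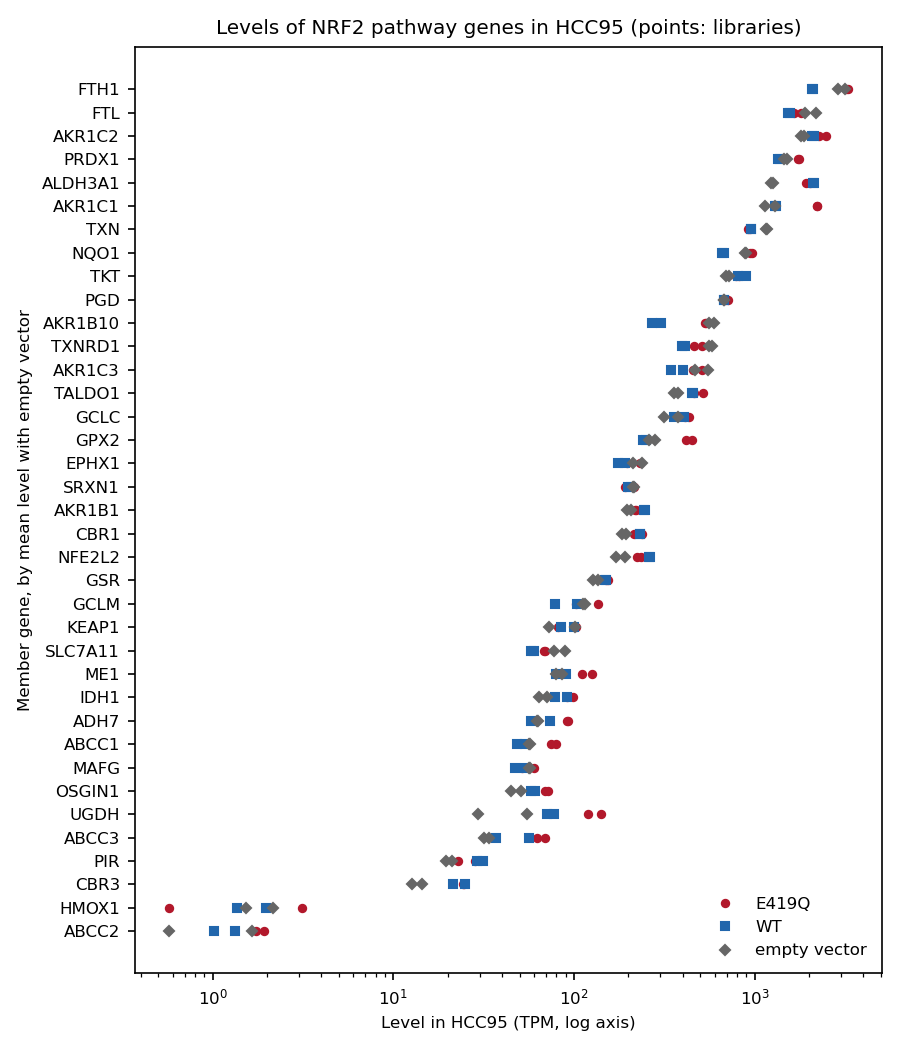
Level in TPM (x axis, log scale) of the 37 members in the 6 HCC95 libraries (points: E419Q red circles, WT blue squares, empty vector grey diamonds), ordered by mean level with the empty vector. FTH1 leads at 2899 and 3149 TPM with the empty vector, and HMOX1 and ABCC2 lie lowest.

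Set side by side, 35 members were tested in both lines. ALDH3A1, CBR1 and ABCC3 fell with siKLF5 and rose with WT, and TXNRD1, NQO1 and FTL rose with siKLF5 and fell with WT, 6 members in opposite directions. IDH1 and OSGIN1 rose in both. Of these genes, only ALDH3A1, TXNRD1 and FTL kept both calls under every alternative. Over all 12432 genes tested in both lines, 5.0% were called in opposite directions and 4.98% in the same direction. The comparisons differ in cell line, agent, normalisation and test. MAFG, PRDX1 and ABCC1 were called with siKLF5 alone of the 2 comparisons. With WT, MAFG and ABCC1 lay just outside the threshold (edgeR adjusted p = 0.0517 and 0.0530) and passed, as lower, with RLE size factors.

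The wider pathways were followed through 81 further genes, of which 75 were tested in BICR31. With siKLF5, 15 of these rose and 7 fell, beside 15.3% and 10.8% of all genes. In either direction 29.3% were called, against the 26.1% of all genes. The siKLF5 counts of single lists below stand against the same shares. Of the 12 regulators of NRF2, 6 rose and none fell. SQSTM1, the autophagy receptor that can bind KEAP1, read 9678, 9619 and 10482 units with siKLF5, against 6338, 6357 and 6364 with siNC (1.56-fold, 95% interval 1.45 to 1.68, limma adjusted p = 4.31e-08). BACH2, a repressor that competes at antioxidant response elements, read 468, 650.0 and 598 units with siKLF5, against 164, 164 and 199 with siNC (3.23-fold, 95% interval 2.45 to 4.27, limma adjusted p = 3.9e-06), and MAFK, a small MAF protein, read 6759, 7293 and 6928 units with siKLF5, against 4893, 4905 and 5298 with siNC (1.39-fold, 95% interval 1.28 to 1.51, limma adjusted p = 5.36e-06). All 3 genes had siKLF5 libraries clear of siNC. In the other lists, 1 glutathione gene rose and 1 fell of 17 tested (GGT1 5.08-fold, 3.06 to 8.43, adjusted p = 7.18e-05, and MGST1 0.757-fold, 0.649 to 0.883, adjusted p = 0.00884). The MGST1 call was lost without siKLF5 B (adjusted p = 0.0566) and without siNC A (0.0570).

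Of 12 thioredoxin, peroxiredoxin and superoxide enzymes tested with siKLF5, 3 rose and 2 fell. SOD2, the mitochondrial superoxide dismutase, read 5719, 5250.0 and 5343 units with siKLF5, against 2545, 2227 and 2442 with siNC (2.26-fold, 95% interval 2.05 to 2.50, limma adjusted p = 1.15e-09), and PRDX6 read 2243, 2533 and 2559 units with siKLF5, against 4582, 4395 and 4526 with siNC (0.542-fold, 95% interval 0.491 to 0.599, limma adjusted p = 4.81e-08), each clear of overlap. PRDX5 was called too (1.16-fold, 1.09 to 1.24, adjusted p = 0.00217). Of 9 NADPH genes 2 rose (IDH2 1.44-fold and H6PD 1.36-fold) and none fell, and of 9 haem and iron genes 2 rose and 2 fell, led by the haem transporter SLC48A1 (0.552-fold, 0.451 to 0.676, adjusted p = 0.000170), the biliverdin reductase BLVRB (1.38-fold, 1.19 to 1.60, adjusted p = 0.00206) and the iron transporter SLC11A2 (1.29-fold, 1.12 to 1.49, adjusted p = 0.00871, lost without siKLF5 C at 0.0517). Of 16 detoxification and export genes 1 rose, ALDH1A1 (2.21-fold, 1.64 to 2.98, adjusted p = 0.000448), and 2 fell, ALDH3A2 (0.641-fold, 0.517 to 0.794, adjusted p = 0.00330) and ABCG2 (0.466-fold, 0.263 to 0.826, adjusted p = 0.0474). The ABCG2 call was lost without siKLF5 A (adjusted p = 0.148), without siKLF5 C (0.0832), without siNC A (0.207), without siNC B (0.0700), without siNC C (0.0534), with no filter on low values (0.0952) and with the replicate letters as a block (0.0635).

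In HCC95, 72 of the 81 further genes were tested. Over the empty vector 23 rose and 6 fell with E419Q, beside 10.9% and 11.2% of all genes. With WT 16 rose and 9 fell, beside 11.2% and 12.5%. Between the forms 11 were higher and 1 lower with E419Q, beside 4.59% and 3.79%. The counts of single lists below stand against the same shares. The 1 lower gene was BACH1, a haem-regulated repressor of NRF2 target genes, which in BICR31 rose with siKLF5 (1.498-fold, 95% interval 1.21 to 1.86, limma adjusted p = 0.00711). The siKLF5 call was lost without siKLF5 C (adjusted p = 0.0613). BACH1 stood at 41.3 and 35.7 CPM with E419Q, 81.9 and 84.4 with WT and 40.5 and 38.5 with the empty vector, so that WT alone was high. It rose with WT (2.09-fold, 95% interval 1.80 to 2.44, edgeR adjusted p = 4.94e-09), not with E419Q (0.954-fold, 95% interval 0.796 to 1.14, edgeR adjusted p = 0.764), and was lower with E419Q than with WT (0.456-fold, 95% interval 0.388 to 0.535, edgeR adjusted p = 5.72e-09). SQSTM1 went the other way, at 1119.7 and 1133 CPM with E419Q, 877 and 849 with WT and 848 and 874 with the empty vector, and was higher with E419Q than with WT (1.29-fold, 95% interval 1.20 to 1.39, edgeR adjusted p = 5.47e-06). SQSTM1 with E419Q was above the empty vector too (1.28-fold, 95% interval 1.19 to 1.38, edgeR adjusted p = 3.71e-06). MAFK stood at 45.2 and 39.8 CPM with E419Q, 41.2 and 42.3 with WT and 64.5 and 61.4 with the empty vector and fell with both forms (WT 0.661-fold, 0.564 to 0.774, adjusted p = 0.000145; E419Q 0.662-fold, 0.562 to 0.779, adjusted p = 0.000215). BACH2 stood at 4.88 and 4.76 CPM with E419Q, 8.81 and 8.52 with WT and 12.7 and 9.69 with the empty vector and fell with E419Q (0.428-fold, 95% interval 0.281 to 0.651, edgeR adjusted p = 0.00259), a call lost with DESeq2 (adjusted p = 0.0891). NFE2L3, a relative of NRF2, was called with WT (0.755-fold, 0.650 to 0.876, adjusted p = 0.00464, lost without WT B at 0.0620 and with DESeq2 at 0.146).

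Of 19 glutathione enzymes and transferases tested, 7 rose and none fell with E419Q (all genes 10.9% and 11.2%), 5 rose and 2 fell with WT (11.2% and 12.5%), and 3 were higher with E419Q than with WT. The 3 were GSTA1, GSTA4 and GSTM3, which couple glutathione to electrophiles. GSTM3 stood at 125 and 137 CPM with E419Q, 77.6 and 78.4 with WT and 61.6 and 51.7 with the empty vector, and GSTA4 at 48.5 and 53.2 CPM with E419Q, 26.4 and 25.5 with WT and 17.1 and 13.6 with the empty vector, in 3 steps each. GSTM3 was higher with E419Q than with WT (1.66-fold, 95% interval 1.45 to 1.90, edgeR adjusted p = 9.6e-07), as was GSTA4 (1.93-fold, 95% interval 1.59 to 2.35, edgeR adjusted p = 8.65e-06). GSTA1 had 24 and 34 counts with E419Q, 5 and 8 with WT and 2 and 4 with the empty vector, and was also called higher with E419Q than with WT (5.05-fold, 95% interval 2.78 to 9.18, edgeR adjusted p = 0.000198). With WT the smallest adjusted p of the list was that of GSTO1, an omega-class transferase (1.41-fold, 1.21 to 1.63, adjusted p = 0.000656), followed by those of GSTA4 (1.70-fold, 1.34 to 2.17, adjusted p = 0.000989) and GSTM3 (1.38-fold, 1.19 to 1.60, adjusted p = 0.00126, lost without empty vector B at 0.0569).

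Of 14 detoxification and export genes, 6 rose and 1 fell with E419Q (all genes 10.9% and 11.2%), 4 rose and 1 fell with WT (11.2% and 12.5%), and 4 were higher with E419Q than with WT. CES1, a carboxylesterase, stood at 106 and 141 CPM with E419Q, 21.0 and 23.0 with WT and 23.2 and 20.03 with the empty vector, with WT and the empty vector overlapping and E419Q far above (over WT 5.55-fold, 95% interval 4.55 to 6.76, edgeR adjusted p = 1.18e-12). UGT1A6, a glucuronosyltransferase, stood at 165 and 177 CPM with E419Q, 119 and 131 with WT and 176 and 149.7 with the empty vector. ALDH2, a mitochondrial aldehyde dehydrogenase, stood at 63.8 and 66.6 CPM with E419Q, 43.2 and 44.3 with WT and 31.8 and 29.1 with the empty vector, and its call between the forms was lost with DESeq2 (adjusted p = 0.0933). UGT1A6 fell with WT (0.767-fold, 95% interval 0.682 to 0.864, edgeR adjusted p = 0.000965) and was higher with E419Q than with WT (1.35-fold, 95% interval 1.20 to 1.52, edgeR adjusted p = 0.000634). CYP4F3, a fatty acid hydroxylase, rose with both forms, at 134 and 125 CPM with E419Q, 114 and 117 with WT and 65.4 and 65.2 with the empty vector. With WT its relative CYP4F11 (1.24-fold, 1.14 to 1.34, adjusted p = 0.000166) and the epoxide hydrolase EPHX2 (1.76-fold, 1.39 to 2.22, adjusted p = 0.000424) were called as well.

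Of 8 NADPH genes, 2 rose and 1 fell with E419Q and 2 rose and 2 fell with WT. H6PD, which makes NADPH in the endoplasmic reticulum, stood at 82.0 and 94.8 CPM with E419Q, 87.6 and 94.9 with WT and 24.9 and 33.4 with the empty vector, about equal in the forms and above the empty vector in both (E419Q 2.92-fold, 2.45 to 3.49, adjusted p = 5.32e-11; WT 3.06-fold, 2.57 to 3.63, adjusted p = 2.05e-11). PGLS, the lactonase of the pentose phosphate pathway, was called with both forms (E419Q 1.28-fold, 1.06 to 1.55, adjusted p = 0.0496, lost without E419Q A at 0.295, without E419Q B at 0.0927, without empty vector A at 0.467, with RLE size factors at 0.0507, with DESeq2 at 0.289 and with only the 2 groups compared in the fit at 0.0668; WT 1.38-fold, 1.15 to 1.66, adjusted p = 0.00791, lost without empty vector A at 0.138, without WT B at 0.104 and with DESeq2 at 0.113). ME2, the mitochondrial malic enzyme, was called with E419Q (0.687-fold, 0.570 to 0.828, adjusted p = 0.00274, lost with DESeq2 at 0.110). Of 8 haem and iron genes, 5 rose and 1 fell with E419Q and 2 rose and 1 fell with WT, among them the transferrin receptor TFRC at 2020.4 and 1956 CPM with E419Q, 1932 and 1785 with WT and 1552 and 1356 with the empty vector, up with both forms, and the haem oxygenase HMOX2 at 55.3 and 58.8 CPM with E419Q, 62.8 and 58.4 with WT and 95.5 and 84.4 with the empty vector, down with both. SLC48A1 rose with E419Q (1.94-fold, 1.67 to 2.26, adjusted p = 3.27e-08) and with WT (1.48-fold, 1.27 to 1.73, adjusted p = 0.000250), and was higher with E419Q than with WT (1.31-fold, 1.14 to 1.51, adjusted p = 0.0101, lost without E419Q A at 0.0675, without E419Q B at 0.0800, without WT B at 0.184 and with DESeq2 at 0.318). FECH, which inserts iron into haem, was called between the forms (1.38-fold, 1.19 to 1.60, adjusted p = 0.00285, lost without E419Q B at 0.0978, without WT B at 0.0923 and with DESeq2 at 0.137). Of 11 thioredoxin, peroxiredoxin and superoxide enzymes, 2 rose and 1 fell with each form, none was called between the forms, and catalase (CAT), at 886 and 906 CPM with E419Q, 947 and 952 with WT and 787 and 705 with the empty vector, rose with both (E419Q 1.18-fold, 1.09 to 1.28, adjusted p = 0.00219, lost without empty vector B at 0.0889; WT 1.26-fold, 1.17 to 1.37, adjusted p = 2.79e-05). PRDX4, a peroxiredoxin of the endoplasmic reticulum, was called with both forms (E419Q 0.763-fold, 0.634 to 0.919, adjusted p = 0.0301, lost without E419Q A at 0.0575, without E419Q B at 0.230, without empty vector A at 0.116 and with DESeq2 at 0.356; WT 0.738-fold, 0.616 to 0.885, adjusted p = 0.0117, lost without empty vector A at 0.0611, without WT A at 0.0950, without WT B at 0.0503 and with DESeq2 at 0.242), TXNRD2, the mitochondrial thioredoxin reductase, with WT (1.51-fold, 1.12 to 2.04, adjusted p = 0.0385, lost without empty vector B at 0.350, without WT A at 0.235, without WT B at 0.0661, with no filter on low counts at 0.0504 and with DESeq2 at 0.405), and PRDX5 with E419Q (1.29-fold, 1.11 to 1.51, adjusted p = 0.0209, lost without E419Q B at 0.217, without empty vector B at 0.220, with DESeq2 at 0.0543 and with the replicate letters as a block at 0.0578).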

How the data were processed

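RNA-seq libraries of BICR31 (6) and HCC95 (6) were read as the authors deposited them. For BICR31 the deposited values are a normalised signal per gene, whose scaling no source used here describes. For HCC95 the authors deposited RSEM estimated counts (expected counts) and TPM per gene. STAR, RSEM and build hg19 are named in the submitters' processing notes. From these, limma was run on log2(signal + 1) keeping genes that averaged 10 units or more, so a BICR31 fold is on that scale. The HCC95 estimated counts were rounded and tested with edgeR's quasi-likelihood test (TMM, filterByExpr) over all 6 libraries. P-values were adjusted by Benjamini and Hochberg over all genes tested, and a call is an adjusted p under 0.05. Both fits were tested on simulated data. Groups came from the labels. All members are accounted for, and those called in at least 1 comparison get every library's value. Of each list of further genes, up to 3 per comparison with the smallest adjusted p under 0.05 are named, and some of these are also given in another comparison. Markers are named where called or at 0 in all 12 libraries, and some others are given as well. Alternatives were another pseudocount, filters, scalings, DESeq2, limma-voom, a block by replicate letter, fits of only the 2 groups compared, and leaving out each library of the 2 groups compared. The other HCC95 group stayed whole in those last fits. TMM scaling of the BICR31 signal was chosen after seeing the data. The members and lists were chosen with earlier results of these data known. Intervals cover the spread between these libraries only. PECAM1 and protein sequences were not used here. 1 further gene that the rule names is not reported here.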

Additional observations from a re-analysis of the deposited data

How the results depend on the processing

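No member that was called changed sign under any alternative run, while several that were not called did, such as ME1 and AKR1C3 with siKLF5 under quantile normalisation and TMM scaling. With siKLF5, quantile normalisation called 8 members lower, against 4, and without each library in turn 5 to 8 were called higher and 4 or 5 lower. With WT, DESeq2 called 7 members higher, against 14, and without each library in turn the count ran from 9 to 12 higher and 8 to 10 lower. With E419Q against the empty vector, without each library in turn 14 to 18 members were called higher and 1 to 4 lower. With E419Q against WT, DESeq2 called 0 lower and limma-voom 1, against 2, and without each library in turn 11 to 13 were called higher and 0 or 1 lower. DESeq2 called fewer of all genes too, 499 higher with WT, against 1450, and 197 lower with E419Q against WT, against 490. Calls kept under every alternative numbered 8 of 11 with siKLF5, 13 of 23 with WT, 15 of 23 with E419Q against the empty vector and 9 of 17 with E419Q against WT. Libraries with the same letter did not deviate together (correlations across genes from -0.076 to 0.025), so the letters are not taken to pair them. With the letter as a replicate block, 7 members were called higher and 5 lower with siKLF5, 14 and 9 with WT, 19 and 4 with E419Q against the empty vector, and 14 and 2 with E419Q against WT. Groups of 2 libraries, low counts for HMOX1, ABCC2 and CBR3 in HCC95, and 1922356 to 2296187 estimated counts per BICR31 library limit the precision.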
